A study of Mus musculus with 2 samples.

Results

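Sox genes encode transcription factors that bind DNA through an HMG box, and 10 of them with known roles in neural progenitors, young neurons and neural crest were followed here in the brain of Plzf lu/lu embryos. They were picked by gene name, with earlier results of these arrays known: Sox1, Sox2 and Sox3 of the SoxB1 group, Sox21 of SoxB2, Sox4 and Sox11 of SoxC, Sox5 of SoxD, and Sox8, Sox9 and Sox10 of SoxE. The arrays held all 10 among 37071 gene names with a usable probe, with 20 probes between them, and 8 of the 10 were among the 10600 genes past the signal filter (processed signal above 200 and signal-to-noise of at least 5 in all 4 channels), Sox5 only through a repeat probe. RNA was taken at E10.5 from wild type embryos, labeled as C57BL/6, and from homozygous luxoid embryos, whose strain background was not given in the sources used here. The methods give the dissected tissue as forebrain plus midbrain, where the labels say only brain. Luxoid is a spontaneous mutation, a base substitution early in the coding part of Plzf (Zbtb16) that truncates this zinc finger repressor, carried in the germ line. Each of 2 arrays compared 1 wild type sample, labeled with Cy3, with 1 Plzf lu/lu sample, labeled with Cy5. The labels call the arrays biological replicates, and how many embryos went into each sample was not given in the sources used here. The dyes were never exchanged, so a dye effect on a probe and an effect of the genotype cannot be told apart.

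In the early neural tube, SoxB1 factors keep cells in the progenitor state, and the related Sox21 acts as a repressor that opposes them. SoxC factors come on as cells leave the cycle and activate genes of young neurons. SoxE factors serve the neural crest and glia: Sox9 acts in crest formation, radial glia and cartilage, Sox10 marks migrating crest and its glial and pigment derivatives, and Sox8 overlaps with both, while the SoxD factor Sox5 works with SoxE proteins in crest and cartilage and later marks deep layer cortical neurons.

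The arrays found Sox2 and Sox4 higher in Plzf lu/lu embryos, each by more than 1.3-fold on both arrays, the threshold the study used for a changed gene. Of the 8 members past the filter these 2 were higher by this rule, against 2.58% of all 10600 genes, while 0 lay below the inverse of it, against 0.736%. Both genes are in the set that the study listed as changed from these same arrays, so their direction is not independent evidence. With 0 calls, the members did not reach an adjusted p under 0.05 in limma (Benjamini-Hochberg over the 10600 genes), against 0.0283% of all genes (3 genes). At an unadjusted p under 0.05 limma called 6 members, each higher, against 15.7% of all genes. The same 6, Sox1, Sox2, Sox3, Sox4, Sox11 and Sox9, were above 0 on the log2 scale on both arrays, which held for 37.3% of all genes. The passing members had median log2 ratios (Plzf lu/lu over wild type) of 0.20 and 0.37 on arrays 1 and 2, beside 0.020 and -0.0047 for all passing genes. In whole tissue, more cells of a type and more RNA per cell cannot be told apart.

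**Figure D1:**
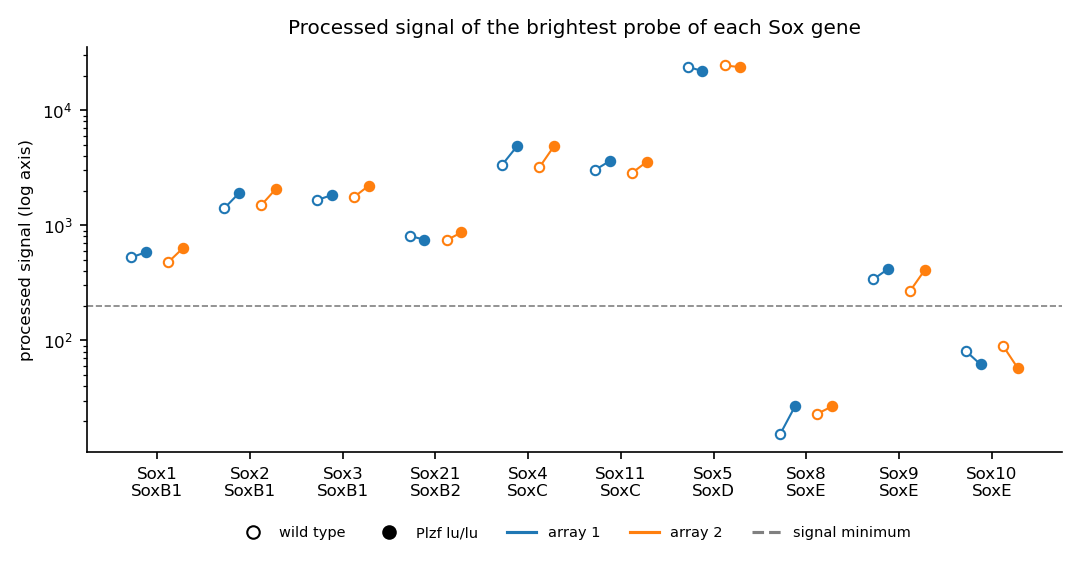
Processed signal (log axis) of the brightest probe of each Sox gene, with open circles for wild type and filled circles for Plzf lu/lu joined within each array, and a dashed line at the signal minimum of 200. Sox2 and Sox4 run upward on both arrays, Sox10 runs downward on both but lies under the minimum, and the Sox5 spot, between 21890 and 24530, is that of a repeat probe.

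Among the SoxB1 genes, Sox2 is the factor best known for keeping neural stem cells from differentiating. Its probe read 1402 in wild type and 1902 in Plzf lu/lu on array 1, and 1496 and 2079 on array 2, in processed signal. Both Plzf lu/lu values lie above both wild type values. Here and below, the share of all genes with groups that do not overlap is not given. Such a gene must be higher (or lower) on both arrays, and 37.3% of the passing genes were higher on both. For higher genes past the filter this is an upper limit of that share. It does not cover Sox10, which was lower, or the second Sox5 probe, as neither passed the filter. A lack of overlap is therefore given as a description only. The dyes were normalized only within an array, so comparing signals across arrays leaves out the pairing. This gave log2 ratios of 0.44 and 0.47, with a mean of 0.46 (SD 0.024, n = 2 arrays, 95% confidence interval 0.27 to 0.64 from limma, adjusted p = 0.0541 from limma). With the dependence of ratios on probe GC content removed, they were 0.32 and 0.43, which is beyond 1.3-fold on array 2 only. The probe of Sox2 (NM_011443) matched 57 of its 60 bases on the plus strand at chr3:34551260-34551316 (mm9). Sox2 has no intron, and its first 30 probe bases are shown because every value of Sox2 here rests on this probe; no base is marked.
Sox2 probe: ctggccgagaatccatgtatatatttgaac

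Sox1, which turns on as ectoderm becomes neural, read 527 in wild type and 585 in Plzf lu/lu on array 1, and 481 and 638 on array 2. Its groups did not overlap, and its log2 ratios were 0.15 and 0.41 (mean 0.28, SD 0.18, adjusted p = 0.130 from limma). The X-linked Sox3 read 1657 and 1829 on array 1, and 1760 and 2209 on array 2. Again both Plzf lu/lu values were above both wild type values, with log2 ratios of 0.14 and 0.33 (mean 0.24, SD 0.13, adjusted p = 0.149 from limma). All 3 SoxB1 genes were thus above 0 on both arrays, Sox2 beyond 1.3-fold on each, Sox1 on array 2 only, and Sox3 on neither. The confidence intervals of Sox1 (0.052 to 0.51) and Sox3 (0.027 to 0.44) overlap that of Sox2.

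Sox21, the SoxB2 repressor, gave opposite signs on the arrays. Its signal was 811 in wild type and 750 in Plzf lu/lu on array 1, but 744 and 867 on array 2. The log2 ratios were -0.11 and 0.22 (mean 0.055, SD 0.24, confidence interval -0.20 to 0.31, adjusted p = 0.751 from limma), so no direction can be given for Sox21 at this precision.

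The transcript Sox2ot is a long noncoding RNA whose gene spans Sox2 on the same strand. Its brightest probe, at chr3:34576768-34576827 (mm9) downstream of the Sox2 probe, read 309 in wild type and 517 in Plzf lu/lu on array 1, and 259 and 718 on array 2. With log2 ratios of 0.75 and 1.47, this was beyond 1.3-fold on both arrays, and with each probe fitted on its own its adjusted p was 0.0491 in limma. The share of all probes with an adjusted p under 0.05 in that fit is not given here. Both other Sox2ot probes were under the signal minimum, at 22.1 to 28.4 in wild type, and had log2 ratios of 0.38 and 0.69 for the probe upstream of Sox2 and of 0.33 and 0.61 for the probe downstream of it. Sox2ot, like Sox2, is on the study's own list. Of the other transcripts named after a member's locus, Sox5os3 and the intronic Sox5it were not well above background.

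Of the SoxC genes, Sox4 supports the survival of young neurons and the activation of their genes. At its brightest probe it read 3367 in wild type and 4873 in Plzf lu/lu on array 1, and 3185 and 4898 on array 2. Both Plzf lu/lu values lie above both wild type values. The log2 ratios were 0.53 and 0.62 (mean 0.58, SD 0.062, confidence interval 0.39 to 0.77, adjusted p = 0.0510 from limma). With each probe fitted on its own, this probe had an adjusted p of 0.0480 in limma. The ratios are the same in both fits, and the adjusted values differ by the set of probes fitted. The share of all probes under 0.05 in the fit on each probe is not given here.

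The second Sox4 probe gave another picture. It read 1270 in wild type and 1213 in Plzf lu/lu on array 1, and 1068 and 1292 on array 2, so that its groups overlap. Its log2 ratios were -0.066 and 0.28 (adjusted p = 0.522 from limma with each probe fitted on its own). The brightest probe lies at chr13:29040826-29040885 and the second at chr13:29042856-29042915 (mm9, minus strand), 2030 bases nearer to the transcript's start. The GC content was 38.3% in the first and 45.0% in the second. Across passing genes, the log2 ratio fell with the GC content of the probe (Spearman -0.376 on array 1 and -0.197 on array 2, a description across genes that share both arrays). With the trend on GC removed, the brightest probe had 0.47 and 0.59 and the second -0.024 and 0.29. As a mean over both probes Sox4 had a log2 mean of 0.34 and was no longer beyond 1.3-fold on array 1. The first 30 bases of each are shown because the Sox4 result depends on which of them is read, and no base is marked.
Sox4 brightest probe: aatcctgtccgtcactgcctgtcaggttgt
Sox4 second probe: ttttctgcaatgaagacagaaagaaggctc

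Sox11, the SoxC partner of Sox4, has 3 probes. The brightest read 3028 in wild type and 3621 in Plzf lu/lu on array 1, and 2854 and 3571 on array 2, with no overlap between the groups. Its log2 ratios were 0.26 and 0.32 (mean 0.29, SD 0.046, confidence interval 0.10 to 0.48, adjusted p = 0.0920 from limma). A probe 546 bases closer to the transcript's end read 1838 and 2435 on array 1, and 1912 and 2495 on array 2. Its log2 ratios of 0.41 and 0.38 were just beyond 1.3-fold on each array (adjusted p = 0.0565 from limma with each probe fitted on its own). These 2 probes lie on the minus strand at chr12:28020087-28020146 and chr12:28019541-28019600 (mm9), the strand of the gene. The third probe carries the name Sox11 but lies on the plus strand at chr12:28023292-28023351, and so reads RNA of the opposite strand. It had log2 ratios of -0.016 and 0.19 (adjusted p = 0.516 from limma). The 2 probes placed on the strand of the gene had log2 ratios above 0 on both arrays, and the third did not.

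**Figure D2:**
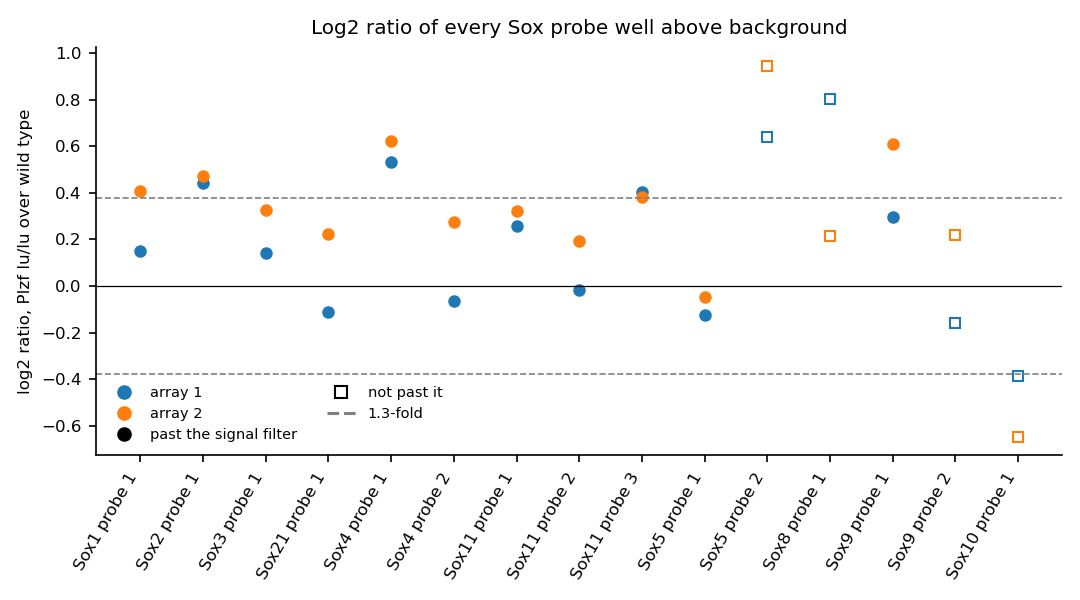
Log2 ratio of Plzf lu/lu over wild type for each of the Sox probes well above background in all 4 channels, with blue for array 1, orange for array 2, filled circles for probes past the signal filter, open squares for the others, and dashed lines at 1.3-fold. Probes of a gene are numbered by wild type signal on array 1, and the probes of Sox4, Sox5 and Sox9 differ from each other.

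Sox5 stands for the SoxD group, and its result turned on the probe. The brightest Sox5 probe read 23890 in wild type and 21890 in Plzf lu/lu on array 1, and 24530 and 23730 on array 2. Its log2 ratios were -0.13 and -0.048 (mean -0.087, SD 0.056, adjusted p = 0.482 from limma). This probe consists of G and A in all 60 bases, in repeats of GGA, and the deposited annotation places only 27 of its bases, at chr6:143776945-143776971 (mm9, minus strand). In stretches of at least 20 bases, 58 of its bases recur in 9 probes of 8 other gene names, and 7 of these 9 also read above 10000 in wild type on both arrays. A wild type signal above 10000 on array 1 was seen at 1313 of 56601 gene probes. The log2 ratios of the 9 probes ranged from -0.38 to 0.038 on array 1 and from -0.095 to 0.087 on array 2. The value under the name Sox5 in the passing set is therefore given only as the value of a repeat probe. Runs of 30 bases from it, from 2 of the probes that share its repeat, and from a Sox5 probe that shares none are shown so that the repeat can be seen, with capitals for bases in the shared stretches.
Sox5 repeat probe: GGAGGAGGAGGAAGAGGAGGAGGAGGAAGA
Cplx2 probe: AGGAGGAGGAGGAGGAGGAGGAGGAGGAGG
Pus7 probe: aGAGGAAGAGGAGGAGGAGGAGGAGGAAGA
Sox5 second probe: gtttgcaaggaagaaatacgaaagctactt

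The other Sox5 probe well above background, at chr6:143777579-143777638 (mm9), shared no stretch with probes of other gene names. It read 38.2 in wild type and 59.5 in Plzf lu/lu on array 1, and 34.4 and 66.2 on array 2. The groups did not overlap, and the log2 ratios of 0.64 and 0.95 (mean 0.79, SD 0.22) have the opposite sign to those of the repeat probe. It did not pass the signal filter, and its adjusted p was 0.267 in limma over all probes well above background. The remaining 4 of the 6 Sox5 probes were not well above background, and their log2 ratios went both ways.

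**Figure D3:**
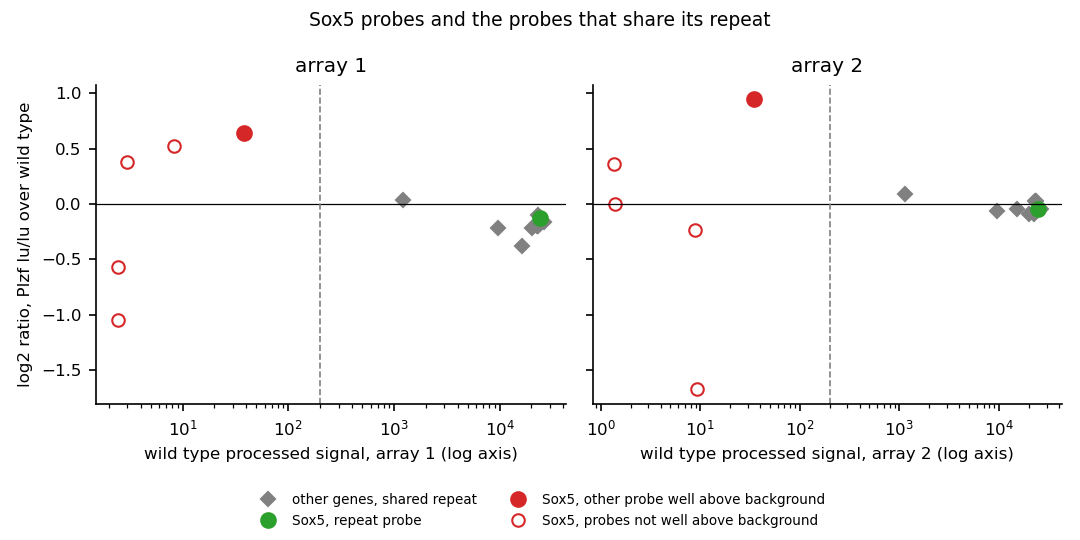
Log2 ratio against wild type processed signal (log axis) on each array for the 6 Sox5 probes and the 9 probes of other genes that share its repeat, with a dashed line at the signal minimum of 200. The repeat probe of Sox5 (green) sits among the probes of other genes (grey), while the second Sox5 probe (filled red) lies at a low signal with log2 ratios of 0.64 and 0.95.

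The SoxE genes did not move as a group. Sox9 read 339 in wild type and 416 in Plzf lu/lu on array 1, and 269 and 411 on array 2. Both Plzf lu/lu values were above both wild type values, with log2 ratios of 0.30 and 0.61 (mean 0.45, SD 0.22, confidence interval 0.21 to 0.70, adjusted p = 0.0753 from limma). It was beyond 1.3-fold on array 2 only. Its second probe, 918 bases nearer to the transcript's start and with 58.3% GC against 45.0%, was dim, at 119.3 and 106.8 on array 1 and 90.9 and 106 on array 2. Its log2 ratios were -0.16 and 0.22, so the second Sox9 probe gave no common direction.
Sox9 brightest probe: ttggggggtgagctttgattaattccccag
Sox9 second probe: tcctactacagtcacgcagccggccagggc

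Sox10 was the member with lower signal in Plzf lu/lu embryos on both arrays at a probe of its own. It read 80.9 in wild type and 61.8 in Plzf lu/lu on array 1, and 90.2 and 57.6 on array 2. Both Plzf lu/lu values were below both wild type values, and the log2 ratios were -0.39 and -0.65 (mean -0.52, SD 0.18). The signal was under the minimum of 200 in every channel, so Sox10 lies outside the tested set. Among the 23283 genes well above background it was lower by more than 1.3-fold on both arrays, as were 2.07% of those genes, and 2.52% were higher. Its adjusted p in limma over these genes was 0.252, with an unadjusted p of 0.00994. The probe of Sox10 (NM_011437) lies at chr15:78985343-78985402 (mm9, minus strand), and its first 30 bases, none of them marked, are given because all of this rests on it.
Sox10 probe: ttgcattaagcactccaagtaatataatca

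Sox8 was near the background. It read 15.4 in wild type and 26.9 in Plzf lu/lu on array 1, and 23.1 and 26.8 on array 2, with log2 ratios of 0.80 and 0.22 (mean 0.51, SD 0.42) and an adjusted p of 0.286 in limma over the genes well above background. The second Sox8 probe was not well above background.

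Set side by side, the 3 SoxB1 genes had median log2 ratios of 0.15 and 0.41 on the arrays. For the 2 SoxC genes the medians were 0.40 and 0.47. For the 3 SoxE genes they were 0.30 and 0.22, a median that covers values of both signs. Sox8 and Sox10 did not pass the filter, and the array 2 median is the value of Sox8, near the background. SoxC lay above SoxB1 by 0.24 on array 1 and by 0.062 on array 2. SoxC lay above SoxE by 0.099 and 0.26 (mean 0.18, SD 0.11), and SoxB1 was below SoxE by 0.15 on array 1 and above it by 0.19 on array 2. Over passing members only, where SoxE is Sox9 alone, SoxC minus SoxE was -0.020. With 2 arrays no exact test of these differences can go below p = 0.5, and none is given.

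**Figure D4:**
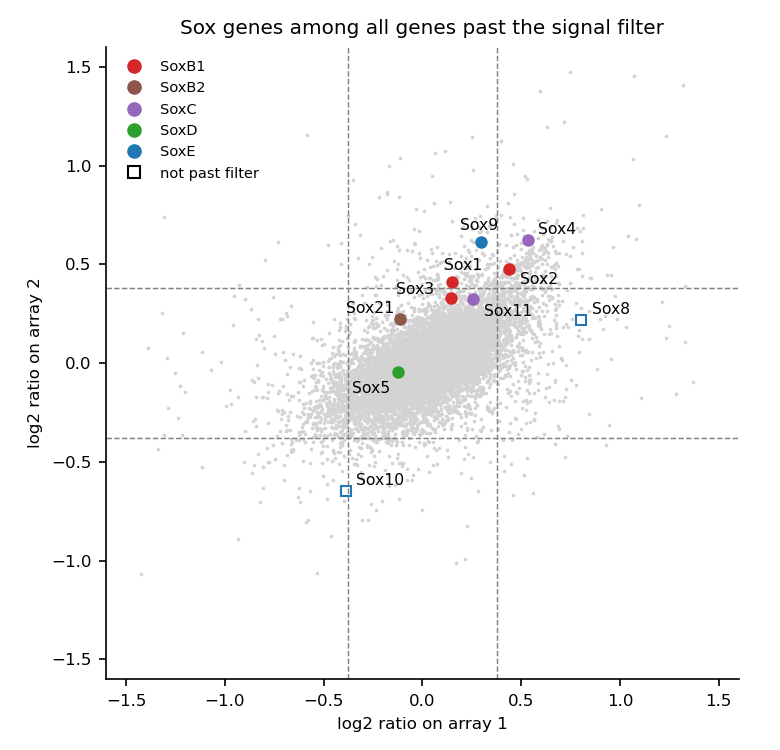
Log2 ratio on array 1 against array 2 for genes past the signal filter (grey, 10595 shown and 5 outside the axes) and for the 10 Sox genes in the colors of their groups, with open squares for members not past the filter and dashed lines at 1.3-fold. Sox2 and Sox4 lie beyond both upper lines, Sox10 beyond both lower lines, and SoxE genes lie in opposite corners.

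The rest of the Sox family was mostly dim. Of the other 10 Sox genes, 2 passed the filter and 0 of these were beyond 1.3-fold on both arrays. Sox6, the SoxD relative of Sox5, read 432 and 498 on array 1 and 357 and 460 on array 2, with log2 ratios of 0.21 and 0.37. Sox13, also SoxD, had -0.27 and -0.14. The Sox12 gene, the remaining SoxC member, was dim but well above background, with 0.22 and 0.36. Of the 8 well above background, Sox18, a factor of endothelial cells, was the only one beyond 1.3-fold on both arrays, with log2 ratios of -0.54 and -0.74, and Sox17 had the highest mean, 0.32.

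Genes that SoxB1 factors work with or that mark progenitors showed no common direction. Of 14 genes, 10 passed, 2 were higher by more than 1.3-fold on both arrays and 0 were lower. Their median log2 ratio was 0.0090 on array 1 and 0.31 on array 2. Pou3f1, a POU factor of a class that binds DNA together with Sox2, was higher with 0.65 and 0.78, and Cdh2, the cadherin that joins neuroepithelial cells, with 0.60 and 0.44. Nes, the intermediate filament of neural stem cells, had -0.078 and 0.44. Notch1, which was dim, had the lowest mean of those well above background, -0.46.

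Genes of young neurons or known targets of SoxC factors had a larger ratio on array 2 than on array 1 in 10 of the 11 well above background (the exception, Stmn1, had 0.39 and 0.25). The share of all genes with a larger ratio on array 2 is not given here, so this count cannot be called unusual. All passing genes had medians of 0.020 and -0.0047. Of 12 genes, 9 passed, 1 was higher by more than 1.3-fold on both arrays and 0 were lower, with medians of 0.21 and 0.55. Elavl4, an RNA-binding protein of neurons, was that gene, with log2 ratios of 0.40 and 0.75. Tubb3, the neuronal tubulin and a known SoxC target, had 0.33 and 0.79, beyond 1.3-fold on array 2 only. Of the 11 genes well above background, 4 were below 0 on array 1 and 0 on array 2. No share of all genes below 0 is given beside these counts. Neurod1, which was under the signal minimum with 58.7 and 154 on array 1 and 77.1 and 213 on array 2, had the highest mean, 1.43, and Tead2, another SoxC target, had the lowest of those well above background, 0.10.

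Neural crest genes, the setting of the SoxE factors, went both ways. Of 18 genes, 8 passed, 1 was higher and 1 lower by more than 1.3-fold on both arrays, with medians of 0.44 and 0.022. Crabp1, a retinoic acid binding protein of crest and of early neurons, read 36270 and 54330 on array 1 and 34350 and 49310 on array 2. Pax3, a factor of dorsal neural tube and crest, was lower, with log2 ratios of -0.40 and -0.70. The factor Tfap2b had the highest mean of those well above background, with 0.99 on array 1 against 0.22 on array 2. Foxd3, a defining crest gene, was not well above background, and neither was Ret, a receptor of its enteric derivatives. Cartilage genes that Sox9 and Sox5 act on were not beyond 1.3-fold on both arrays in any of the 3 that passed, and Col2a1, the collagen of cartilage, had -0.12 and -0.13. Hapln1 had the highest mean of that list, 0.18, and the dim Col11a2 the lowest, with -0.44 and -0.38, beyond 1.3-fold lower on both arrays though not past the filter.

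**Figure D5:**
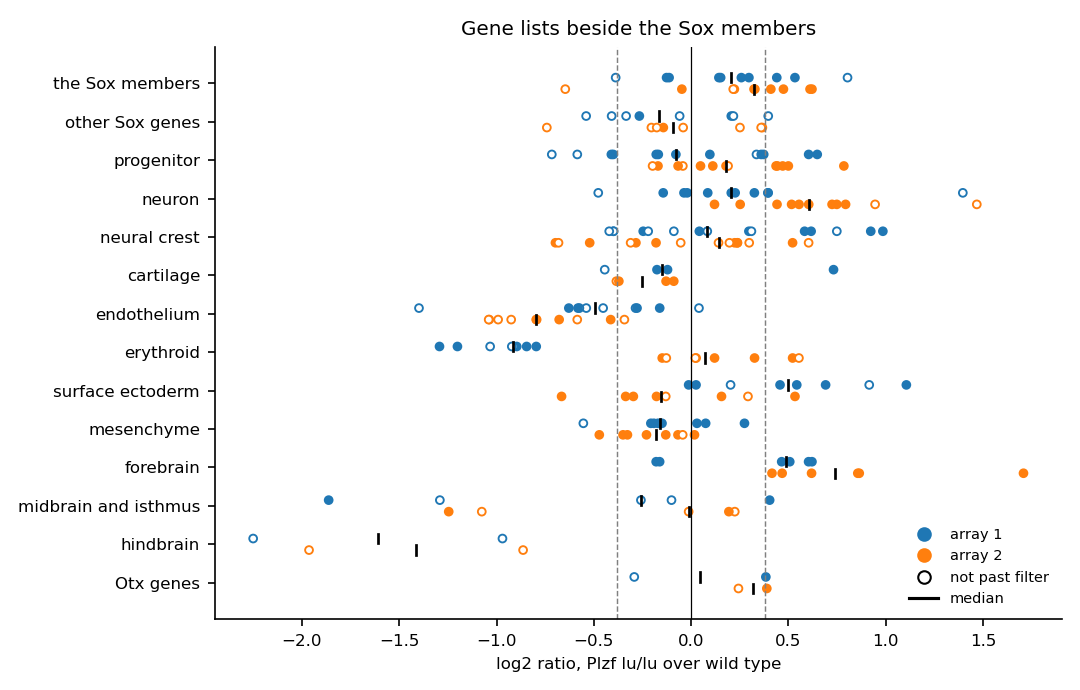
Log2 ratio of Plzf lu/lu over wild type for the Sox members and for genes well above background of each list, with blue for array 1, orange for array 2, open circles for genes not past the signal filter, black bars for the medians and dashed lines at 1.3-fold. The medians of the forebrain genes lie to the right of 0 and those of the endothelial genes to the left on both arrays (2 forebrain genes are below 0 on array 1, and 1 of the 10 endothelial genes above it), while erythroid and surface ectoderm genes differ between the arrays.

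Markers of region and of other cell types moved on the same arrays. Of 6 forebrain genes, all passed and 4 were higher by more than 1.3-fold on both arrays, with medians of 0.49 and 0.74. Their summed processed signal was 5303 in wild type and 5912 in Plzf lu/lu on array 1, and 3368 and 6530 on array 2. Otx2, a factor of forebrain and midbrain, was higher too, with 0.38 and 0.39. En2, a midbrain and isthmus factor, was lower, with -1.86 and -1.25, and of the other 5 genes of its list Fgf8, the only one that passed, had 0.40 and 0.19. Of the 5 genes of this list well above background, En2 and Cnpy1 were beyond 1.3-fold lower on both arrays and 0 were higher. Among all genes well above background, 2.07% were lower and 2.52% higher by this rule. Cnpy1, which did not pass the filter, had log2 ratios of -1.29 and -1.08. The summed signal of the 6 genes was 2918 in wild type and 1560 in Plzf lu/lu on array 1, and 3335 and 1928 on array 2, but without En2 it was 1001 and 1032, and 1025 and 953.6. Fgf8 is the brightest gene in the sum without En2. None of the 6 hindbrain genes passed, and the 4 of them not well above background include Hoxa2, Hoxb1 and Hoxb2. Of the 10 endothelial genes, all well above background, 9 were below 0 on both arrays, 6 of them beyond 1.3-fold on each. Their summed signal was 5499 and 4581 on array 1, and 6121 and 4265 on array 2. All 8 erythroid genes were below 0 on array 1 and 2 of them on array 2, and the summed erythroid signal was 466700 in wild type against 250300 in Plzf lu/lu on array 1, and 194200 against 237200 on array 2. Of 8 surface ectoderm genes, 1 was below 0 on array 1 and 5 on array 2, and of 8 mesenchymal genes 5 were below 0 on both. For these counts by sign, the share of all genes below 0 is not given, so they cannot be called unusual. Of all genes well above background, 66.66% had the same sign on both arrays, in either direction. The part of these marker shifts in the ratios of Sox2, Sox4, Sox9 and Sox10 was not tested.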

How the data were processed

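Arrays with 2 dyes (Agilent SurePrint G3 Mouse Gene Exp v2, both on 1 slide) compared wild type (Cy3) with Plzf lu/lu (Cy5). The authors quantified them with Feature Extraction 10.7.3.1. The deposited files hold intensity, raw and processed (background subtracted, dyes normalized within an array by rank-consistency LOWESS), flags on spots, and log10 ratios, Cy5 over Cy3. Another deposited table gives them as log2, within 0.005. Probe positions are the files' (mm9).

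Control spots and outlier spots (137 and 126) were left out, and the brightest probe stood for a gene. The methods call spots with a processed signal above 200 and a signal-to-noise ratio of 5 or more positive. Here a gene had to meet both in every channel, which they do not state, and was called beyond 1.3-fold when it was so, in 1 direction, on each array. Log2 ratios were fitted by limma 3.58.1 (R 4.3.3) with an intercept, eBayes and Benjamini-Hochberg adjustment, tested on simulated data. The 1 residual degree of freedom makes the test rest on variance pooled across genes, and the number of arrays limits precision. Python 3.11.15 with pandas 2.3.3, numpy 2.4.6 and matplotlib 3.10.9 served the rest.

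The Sox genes, gene lists and tests were chosen with earlier results of these data known. Named list genes are those beyond 1.3-fold on both arrays and the highest and lowest of each list. Nes, Tubb3, Stmn1, Col2a1, Fgf8, Cnpy1, Sox6, Sox12, Sox13, undetected crest and hindbrain genes and the repeat probes of other genes were added after their values were seen. Alternatives were normexp (offset 50) with loess or with centring on all spots or on passing genes, the deposited log2 table, other filters or none, the mean over probes, each probe, removal of the GC trend (lowess, span 0.67), each array alone, 1.5-fold, the mean of the arrays, unpaired channels and eBayes with trend. Probes sharing no 20 bases with other gene names, medians over passing members, and the mean over probes without the opposite-strand Sox11 probe were added after seeing the data. Some values and sequences are not reported here.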

Additional observations from a re-analysis of the deposited data

How the results depend on the processing

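Sox2, Sox4, Sox11 and Sox9 kept mean log2 ratios above 0, and Sox10 below 0, in all alternatives run for them, which include each array alone and the mean of each other probe. The other filters, eBayes with trend and unpaired channels cannot change a log2 mean, so they do not bear on this. For Sox2 and Sox10, with 1 probe each, neither can the mean over probes. The log2 mean of Sox2 ranged from 0.37 to 1.02, and that of Sox10 from -0.70 to -0.15. The lowest log2 mean was 0.10 for Sox4, 0.089 for Sox11 and 0.030 for Sox9. Each of these came from another probe of the gene, whose arrays had opposite signs, so a mean above 0 gives no common direction there. The number of members higher by more than 1.3-fold on both arrays, 2 as reported, was 8 with normexp plus median centring, which moved the median of all passing genes to 0.56 and put 63.5% of them beyond 1.3-fold higher. It was 1 with the mean over probes (Sox2, against 1.34% of all genes), 1 with the GC trend removed (Sox4, against 2.08%) and 0 at 1.5-fold (against 0.387%). With 1 array alone it was 2 to 4, against 8.25% on array 1 and 4.5% on array 2. The number lower was 1, Sox10, with the filter on background (2.07% of all genes) or with no filter (5.86%). The number with adjusted p under 0.05 in limma, 0 as reported, was 8 with normexp and median centring (91.1% of all genes), 3 with normexp centred on the passing genes (Sox2, Sox4 and Sox11, against 14.3%) and 2 with eBayes with trend (Sox2 with 0.0383 and Sox4 with 0.0219, against 3.71%). Without pairing the channels by array (no replicate block) it stayed at 0.

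Sox5 turned to a log2 mean of 0.70 with normexp and median centring, 0.15 with normexp centred on the passing genes and 0.028 with the GC trend removed. It was 0.79 with the brightest probe that shares no repeat, which is also that probe's value on its own, and 0.14 at another, dim probe. Sox8 turned to -0.36 with normexp centred on the passing genes and -0.11 at its second probe. Sox21 was -0.11 on array 1 alone and 0.22 on array 2 alone.

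With normexp and median centring, the median of SoxB1 moved to 0.81, of SoxC to 1.02 and of SoxE to 0.20, and with centring on the passing genes that of SoxE to -0.36. Both settings gave SoxB1 minus SoxE as 0.61 and SoxC minus SoxE as 0.83. The mean over probes gave 0.30 for SoxC, -0.036 for SoxE, -0.019 for SoxB1 minus SoxC, 0.32 for SoxB1 minus SoxE and 0.34 for SoxC minus SoxE. Without the Sox11 probe on the opposite strand, a setting chosen after seeing the data, the mean over probes gave 0.34 for SoxC, -0.061 for SoxB1 minus SoxC and 0.38 for SoxC minus SoxE, with SoxE, SoxB1 minus SoxE and the number of members higher as before. Removal of the GC trend gave 0.37 for SoxC. Over passing members only, SoxE was 0.45, the value of Sox9 alone, and SoxC minus SoxE was -0.020. Except where the construction of an alternative shows it, the cause was not tested. Signal over background limits Sox8, Sox10 and the second Sox5 probe, and the 2 arrays limit every ratio.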

Other observations

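Among the 10600 passing genes, 973 were represented by a brightest probe that shares at least 20 bases with probes of other gene names, a count that takes in repeats, related genes and overlapping or duplicate transcript names alike. With the brightest probe that shares none, 9716 genes passed, of which 197 were higher and 75 lower by more than 1.3-fold on both arrays, beside 274 and 78 with all probes.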
